A study of Mus musculus with 75 samples.

Results

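The genes described here are 36 enzymes and regulators that carry glucose carbon through glycolysis, into the mitochondrion and around the citrate cycle, among 24984 genes counted in mouse skin fibroblasts. They were listed by their place in the pathway, with no threshold on a measured value, and with earlier results of these data known. Of these, 18 belong to glycolysis, from the glucose transporter Slc2a1 to lactate dehydrogenase, 4 to the entry of pyruvate into the mitochondrion (Pdha1, Pdhb, Dlat and Pcx) and 14 to the citrate cycle. The study followed replicative senescence, the loss of the ability to divide on repeated passaging. The passage series used skin fibroblasts of female C57BL/6 mice aged 2 months, cultured and split 1:3, and 4 RNA-seq libraries were made at each of passages 1, 3, 5 and 7, called P1 to P7 here. ATAC-seq, which cuts accessible DNA with a transposase, was made of 4 samples at P1 and of 3 at every later passage. A further 28 RNA-seq libraries came from primary skin fibroblasts carrying lentiviral constructs. E2f4, a transcription factor of the E2F family, was overexpressed from a doxycycline-induced vector that also makes EGFP (2 libraries) and set against the vector control (2 libraries). E2f4 was knocked down with hairpin sh1 (3 libraries), Tead1 with hairpins sh3 and sh4 (3 each) and Atf3 with hairpins sh5 and sh6 (3 each), and each of these experiments had its own 3 libraries of cells with a non-targeting hairpin (nt). The target sequences that the study lists for sh3 and sh4 are the same site of Tead1 shifted by 1 base, so these hairpins are not independent in target. Knockdown cells were infected and selected with puromycin, overexpression cells were infected and given doxycycline, and the study states that fibroblasts of newborn mice and of mice aged 2 months were used for such work. The study describes the cells for E2f4 overexpression and Atf3 knockdown as pre-senescent and those for E2f4 knockdown as proliferating. Its text puts E2f4 knockdown at P3 and E2f4 overexpression at a later passage. Its methods state later passages for senescence interventions than for proliferating cells. The labels of these libraries give no passage. The study speaks of independent series of samples for its methylation data, but the labels do not say whether the replicate RNA-seq libraries came from separate animals or cultures, and p-values then measure only the spread between these libraries, which may be technical.

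Glycolysis breaks glucose into pyruvate in the cytosol, with hexokinase, phosphofructokinase and pyruvate kinase as its controlled steps, and lactate dehydrogenase reduces pyruvate to lactate. The pyruvate dehydrogenase complex turns pyruvate into acetyl-CoA in the mitochondrion, pyruvate carboxylase turns it into oxaloacetate, and the citrate cycle oxidises acetyl-CoA and supplies precursors for lipids and amino acids. Several steps have isozymes encoded by separate genes, such as Ldha and Ldhb, and dividing fibroblasts are known for using glycolysis strongly even in the presence of oxygen. TEAD1 binds DNA at a short site with the core GGAATG and works with the coactivators YAP and TAZ of the Hippo pathway, and the hypoxia-inducible factors bind the core ACGTG in front of many glycolytic genes.

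Promoters of 35 of the 36 genes were found among RefSeq promoter sequences of GRCm38 (mm10), 54 in all. Each motif was looked for on both strands. GGAATG was found in 9.3% of the members' promoters, against 12.4% of the promoters of genes expressed in the passage series and 14.7% of all promoters of the same length. Its 4 genes were Aldoa, Aldoc, Eno1 and Mdh1. ACGTG was found in 46.3% of the members' promoters, against 24.9% and 19.6%, and in 17 of 35 genes. CACGTG, an E-box that contains ACGTG, was in 13% of the members' promoters against 9.8% and 7.2%, and an E2F sequence (TTGGCGC or TTCCCGC or TTCGCGC or TTGCCGC) was in 22.2% against 16.1% and 9.6%. A gene can have several promoters that overlap, such as Ogdh with 6 start sites, so the same bases can count more than once in these shares. No share by gene is given for genes other than the members. A match is a description of the letters and not a binding site. The bases before the start site of 4 glycolysis genes that fell on Tead1 knockdown are shown, chosen after their values were seen, 2 with the TEAD core and 2 without it. In the first pair, the aldolase gene Aldoa (minus strand, chr7:126799255-126799504) and the enolase gene Eno1 (plus strand, chr4:150236947-150237196), capitals mark only the TEAD core, here read as its reverse complement, which ends 222 bases before the start site shown for Aldoa and 183 bases before that for Eno1, each of which has 3 annotated start sites. In the second pair, the hexokinase gene Hk2 (minus strand, chr6:82774455-82774704) and the phosphoglycerate kinase gene Pgk1 (plus strand, chrX:106186850-106187099), capitals mark the hypoxia core, read on either strand.
Aldoa: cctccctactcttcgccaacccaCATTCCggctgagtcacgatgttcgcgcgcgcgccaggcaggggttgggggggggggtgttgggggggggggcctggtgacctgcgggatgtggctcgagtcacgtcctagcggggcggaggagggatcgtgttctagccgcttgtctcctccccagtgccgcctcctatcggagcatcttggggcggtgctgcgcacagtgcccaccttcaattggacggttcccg
Eno1: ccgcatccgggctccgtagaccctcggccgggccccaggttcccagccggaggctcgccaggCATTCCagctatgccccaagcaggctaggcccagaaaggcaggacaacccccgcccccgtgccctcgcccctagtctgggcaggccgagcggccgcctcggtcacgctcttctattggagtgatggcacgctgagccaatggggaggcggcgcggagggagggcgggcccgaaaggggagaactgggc
Hk2: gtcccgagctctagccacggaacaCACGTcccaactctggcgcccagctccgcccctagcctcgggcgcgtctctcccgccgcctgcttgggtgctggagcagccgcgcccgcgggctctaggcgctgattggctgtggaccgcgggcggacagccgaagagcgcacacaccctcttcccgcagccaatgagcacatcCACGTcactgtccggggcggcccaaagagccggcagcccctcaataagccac
Pgk1: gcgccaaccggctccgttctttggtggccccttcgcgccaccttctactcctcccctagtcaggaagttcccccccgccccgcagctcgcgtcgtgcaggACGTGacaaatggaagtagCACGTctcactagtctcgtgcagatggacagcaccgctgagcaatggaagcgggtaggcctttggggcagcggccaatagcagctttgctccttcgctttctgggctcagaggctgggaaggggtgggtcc

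The 44 RNA-seq libraries held between 9147324 and 27552949 counts. Levels below are CPM after TMM scaling, that is, counts scaled by library size, and differences are log2 fold changes with their standard error (SE). They were tested with edgeR's quasi-likelihood test and Benjamini-Hochberg adjustment over all genes tested, and a gene passed with an adjusted p under 0.05. Fibroblast markers were abundant in each group, with at least 9 of 10 over 5 CPM. Markers of other cell types were high at P1, where all 8 macrophage markers were over 5 CPM and their sum was 316 to 486 CPM, against 44 to 60.6 CPM at P3 and 33.9 to 52 CPM at P7. The sums at P1 were 131 to 207 CPM for 9 skeletal muscle markers, 74.7 to 456 CPM for 8 keratinocyte markers and 140 to 143 CPM for 6 endothelial markers. P7 was set against P3 as well as P1, but other cell types differed there too. From P3 to P7 all 6 endothelial markers fell over 2-fold, with sums of 36.7 to 41.4 CPM at P3 and 7.33 to 10 at P7. Of 8 muscle markers tested, 7 fell over 2-fold and 1 rose, with sums of 53.1 to 59.4 and 38.4 to 108 CPM. Only 1 of the 9 muscle markers listed was over 5 CPM at each of these passages. The part of these cell types in the differences between passages was not tested. In bulk RNA, fewer cells of a type and less RNA per cell cannot be told apart. E2f4 was at 1149 CPM with overexpression against 41.5 in the control and at 21.26 CPM with sh1 against 60.03. Tead1 was at 279 CPM with sh3 and 316.3 with sh4 against 541.5. Atf3 was near the limit of measurement, at 1.337 CPM with sh5, 1.72 with sh6 and 2.977 with nt, and passed for sh5 (adjusted p = 0.0447) but not for sh6 (adjusted p = 0.114). Libraries of the interventions held both Xist and Y-linked transcripts, where Xist was at 555 to 685 CPM with E2f4 overexpression against 1150 to 1420 CPM in its control. The Y-linked gene Ddx3y was at 7.3 to 9.94 CPM against 36.3 to 37.2 CPM in the same groups.

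Abundance per kilobase was taken over all annotated exons of a gene, which is 4078 bases for Pkm, 5342 for Ldha and 2005 for Eno1. Their longest coding transcripts have 2432, 1815 and 2027 bases, so the order below depends on the length chosen. Per kilobase of exon, Eno1 and the pyruvate kinase gene Pkm were the most abundant members at P1, at 646.8 ± 17.4 and 634.4 ± 26.1 CPM per kb (SD, n = 4), which did not differ beyond their spread. Aldoa followed at 311.1 ± 11.1, then Pgk1 at 228.3 ± 7.82, the triose phosphate isomerase gene Tpi1 at 212.6 ± 16.1 and the phosphoglycerate mutase gene Pgam1 at 209.0 ± 9.02 CPM per kb. Tpi1 overlapped both Pgk1 and Pgam1 within its spread, while the spreads of Pgk1 and Pgam1 did not reach each other. The most abundant citrate cycle gene was Mdh2, mitochondrial malate dehydrogenase, at 167.6 ± 7.62 CPM per kb, followed by citrate synthase, Cs, at 99.51 ± 2.02 CPM per kb. The low end of glycolysis was Ldhb at 3.501 ± 0.615 and Aldoc at 0.7545 ± 0.0494 CPM per kb. Gapdh, which makes bisphosphoglycerate from glyceraldehyde phosphate and was the reference gene of the study's quantitative PCR, was at only 58.71 ± 3.3 CPM per kb. How the counting treated reads that fit several places can affect genes with near copies, and the genome holds 43 intron-free near copies of the Gapdh transcript, 3 of Eno1, 2 each of Pgam1 and Pgk1 and 1 each of Ldhb, Pdhb, Pkm and Tpi1, so the counts of these 8 genes are uncertain. Counting ignored strand, and 12 members share exonic bases with a gene on the opposite strand, most of all Pdha1 (20.9% of its bases), Cs (9.3%), Pfkm (8.3%) and Ogdh (6.4%).

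The passage comparison asks how these enzymes change as the cells approach arrest. Most glycolysis genes rose. From P1 to P7, 18 of the 36 members rose (30.5% of all genes tested did) and 4 fell (31.9%). Of the glycolysis genes 13 rose and 0 fell, of the citrate cycle genes 4 rose and 3 fell, and of the 4 pyruvate entry genes 1 did each. The citrate cycle counts, of 14 genes, lie near or below the shares over all genes. From P3 to P7, 15 members rose (24.8%) and 6 fell (26.5%), with 12 rising and 0 falling in glycolysis and 2 rising and 5 falling in the citrate cycle. The median log2 difference between P7 and P3 was 0.40 over the 18 glycolysis genes, 0.057 over the 14 citrate cycle genes and -0.007 over all genes tested. No member rose over 2-fold in either comparison, and Idh2 alone fell over 2-fold.

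The steps between neighbouring passages were under 2-fold for each member but Aldoc, the brain-type aldolase, which rose by 1.08 from P3 to P5 (adjusted p = 0.0421) and then had a log2 difference of -1.31 from P5 to P7 (adjusted p = 0.0296). From P1 to P3, 2 members rose (16%) and 2 fell (17.5%). From P3 to P5, 8 rose (13.4%) and 2 fell (15.3%), and 7 of those that rose were glycolysis genes. These counts rest on single libraries, with 7 members passing from P1 to P3 without P3 replicate 1 in place of 4, and with 3 passing from P3 to P5 without P5 replicate 3 and 6 without P3 replicate 4 in place of 10. From P5 to P7, 0 rose (7.67%) and 3 fell (9.1%). When the fit held only the 2 groups compared, 11 members passed from P1 to P3 and 1 from P5 to P7. The shares of all genes passing in these fits are not given here, so a change particular to the members cannot be read from these counts. The mean level was higher at each of the 3 steps for 12 of 36 members, against 16.1% of genes tested, and lower at each step for 2 members, Aco1 and Idh2, against 16.8%. P7 had the highest mean of the 4 passages for 21 of 36 members and for 32.8% of genes tested.

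Among the controlled steps of glycolysis, the phosphofructokinase genes showed the largest differences. Pfkl, the liver-type subunit, was at 88.56, 88.01, 99.6 and 84.71 CPM at P1, 117.7, 123.7, 110 and 84.12 at P3, 135.6, 145.7, 182.2 and 157.3 at P5 and 216.6, 187.6, 178.7 and 122.3 at P7. Each P7 library was above each P1 library, and replicate 4 was the lowest at P1, P3 and P7. The log2 difference was 0.97 ± 0.144 (SE) between P7 and P1 (adjusted p = 9.51e-06) and 0.69 between P7 and P3 (adjusted p = 0.000528). Pfkm, the muscle-type subunit, was at 23.22, 18.96, 22.7 and 20.98 CPM at P1, 22.08, 24.97, 19.86 and 23.11 at P3, 31.27, 29.73, 35.99 and 35.21 at P5 and 40, 37.73, 41.35 and 35.33 at P7. Neither P5 nor P7 overlapped P1 or P3, and Pfkm rose by 0.85 ± 0.099 from P1 and by 0.78 from P3 (adjusted p = 4.65e-07 and 3.27e-06). Pfkp, the platelet-type subunit, did not pass at any step and lay between 71.11 and 88.43 CPM in all 16 libraries. Pfkfb3, which makes the fructose bisphosphate that activates phosphofructokinase, was at 34.45, 30.58, 34.45 and 31.87 CPM at P1, 29.9, 40.61, 35.46 and 30.5 at P3 and 43.51, 55.63, 52.8 and 46.98 at P7. P7 was above P1 and P3 without overlap, and the difference from P1 was 0.60 ± 0.109 (adjusted p = 8.53e-05).

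Abundant enzymes of other steps rose as well. Aldoa, which splits fructose bisphosphate, was at 764.2, 746.4, 780.4 and 718 CPM at P1, 877.1, 776.4, 827.3 and 705.2 at P3, 975, 923, 1168 and 1032 at P5 and 1292, 1230, 1103 and 907.7 at P7. P7 lay above P1 and P3 without overlap, with a log2 difference of 0.59 ± 0.104 from P1 (adjusted p = 6.2e-05) and 0.51 from P3 (adjusted p = 0.000483). Pgk1, the first enzyme of glycolysis to yield ATP, was at 413.9, 418.6, 434.4 and 399.7 CPM at P1 and 728.8, 682.9, 633.3 and 481.9 at P7. The groups did not overlap, although replicate 4 of P7 stood well below the other P7 libraries, and the difference was 0.60 ± 0.113 (adjusted p = 0.000132). Gpi1, the isomerase that makes fructose phosphate, was at 317.4, 326.3, 302.6 and 287.7 CPM at P1, 340.1, 315.5, 339.1 and 285.6 at P3, 427.7, 377.6, 450.4 and 409.5 at P5 and 461.4, 476.3, 431.1 and 356.7 at P7. Most of its rise lay between P3 and P5, with a log2 difference of 0.38 ± 0.093 (adjusted p = 0.00551) and the groups did not overlap. Pkm, pyruvate kinase, was at 2411, 2066, 2287 and 1964 CPM at P3 and 3392, 3375, 3027 and 2632 at P7, again with no overlap, and rose by 0.51 ± 0.097 (adjusted p = 0.000248). Gapdh was at 105.8, 121.4, 113.4 and 112.7 CPM at P1, 113, 99.39, 92.59 and 73.8 at P3, 87.36, 86.71, 129.8 and 107.3 at P5 and 117.6, 138.7, 129.1 and 111.6 at P7. It passed between P7 and P3 (log2 difference 0.39, adjusted p = 0.0161) but not between P7 and P1 (adjusted p = 0.381), and the groups overlapped in both.

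**Figure D1:**
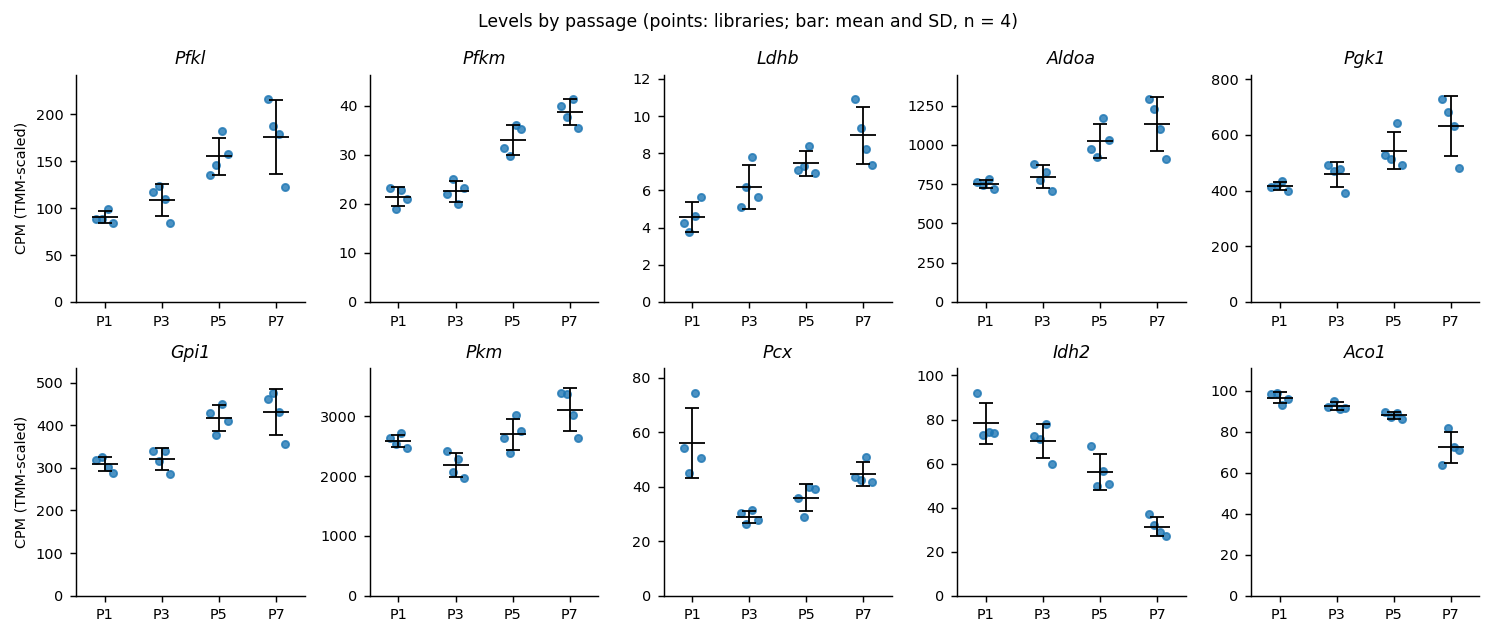
Level of 10 members (CPM after TMM scaling, vertical axis from 0) by passage, with points for the 4 libraries and a bar for the mean and SD. Pfkl, Pfkm, Aldoa and Pgk1 were higher at P7 than at P1 in every library, and Idh2 fell from 73.06 to 92.19 CPM at P1 to 27.24 to 37.18 CPM at P7.

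The largest difference in the citrate cycle was a loss. Idh2, the mitochondrial isocitrate dehydrogenase that makes NADPH, was at 92.19, 73.06, 74.31 and 73.88 CPM at P1, 72.55, 71.27, 77.95 and 59.61 at P3, 67.84, 49.78, 56.47 and 50.77 at P5 and 37.18, 32.25, 28.74 and 27.24 at P7. P7 was below each earlier passage without overlap, and Idh2 fell by 1.32 ± 0.122 from P1, by 1.17 from P3 and by 0.84 from P5 (adjusted p = 1.85e-08, 3.12e-07 and 8.13e-05). Aco1, the cytosolic aconitase that also binds iron-responsive RNA elements, was at 89.62, 86.92, 89.3 and 85.99 CPM at P5 and 63.82, 81.94, 72.71 and 70.89 at P7. It fell by 0.28 ± 0.075 at that last step (adjusted p = 0.0134) and by 0.42 from P1 to P7 (adjusted p = 7.89e-05), without overlap in either. The subunits of the NAD-dependent isocitrate dehydrogenase moved apart. Idh3a, the catalytic subunit, was at 99.56, 104.6, 110.9 and 119.4 CPM at P3 and 81.6, 88.12, 89.08 and 83.73 at P7 and fell by 0.34 ± 0.089 (adjusted p = 0.00334). Idh3b, a partner subunit, was at 66.37, 76.48, 65.83 and 65.83 CPM at P3 and 99.24, 104.2, 88.62 and 88.03 at P7 and rose by 0.47 ± 0.085 (adjusted p = 0.000157), while Idh3g did not pass (log2 difference 0.061, adjusted p = 0.621). Both Idh3a and Idh3b were free of overlap between P3 and P7. Fh1, fumarase, was at 61.78, 54.57, 52.57 and 53.03 CPM at P1 and 65.45, 72.43, 69.64 and 74.54 at P3, a rise of 0.35 ± 0.084 (adjusted p = 0.00354), and was lower again at P7 (68.63, 59.8, 61.18 and 55.08 CPM).

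Of the enzymes at the entry of pyruvate, pyruvate carboxylase varied most. Pcx was at 54.24, 45.06, 74.44 and 50.37 CPM at P1, 30.16, 26.34, 31.27 and 27.8 at P3, 35.8, 28.9, 40 and 38.99 at P5 and 43.59, 42.28, 51.03 and 41.86 at P7. It fell by 0.95 ± 0.135 from P1 to P3 (adjusted p = 2.06e-05) and rose by 0.63 ± 0.136 from P3 to P7 (adjusted p = 0.000779), each without overlap. The adipocyte markers, 6 genes of a cell type known for strong Pcx expression, summed to 92.9 to 122 CPM at P1 and 7.69 to 10.6 CPM at P3. Only 2 of the 6 were over 5 CPM at P1, and 2 were at 0 in every P1 library. The part of these markers in the fall was not tested. Hk1, the hexokinase of most tissues, had the same course, with 166.2, 164.7, 172.5 and 162.6 CPM at P1, 134.5, 110.5, 125.4 and 119.7 at P3, 146, 135.9, 150.4 and 144.2 at P5 and 139.9, 170, 148.3 and 140.8 at P7. It fell by 0.44 ± 0.08 from P1 to P3 (adjusted p = 0.000272) and rose by 0.23 ± 0.079 from P3 to P5 (adjusted p = 0.0335). Pdha1, the catalytic subunit of pyruvate dehydrogenase, rose by 0.22 from P1 to P3 (adjusted p = 0.0184) and fell by 0.19 from P3 to P7 (adjusted p = 0.0264), and its partner Pdhb rose by 0.28 from P1 to P7 (adjusted p = 0.00297).

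Replicate 4 was often the lowest library of its passage, for 13 of the 18 glycolysis genes at P1 and again at P3, for 9 at P5 and for 15 at P7. For Ldha, the muscle-type subunit of lactate dehydrogenase, the levels were 812.6, 799.3, 833.4 and 689.6 CPM at P1, 970, 1053, 1011 and 798.8 at P3, 1064, 983.4, 1222 and 929.6 at P5 and 1269, 1179, 1040 and 764.8 at P7. The difference between P7 and P1 passed (log2 0.44 ± 0.131, adjusted p = 0.00655) although replicate 4 of P7 lay inside the range of P1. Eno1 was at 1308, 1311, 1322 and 1245 CPM at P1, 1509, 1587, 1656 and 1408 at P3 and 1707, 1689, 1526 and 1193 at P7, where replicate 4 was below every P1 library. Tpi1 was at 330.5, 308.9, 329.6 and 280.2 CPM at P1 and 479.8, 424.1, 376.4 and 289.9 at P7, and its replicate 4 at P7 was inside the P1 range. Without replicate 4 of P3 and P7, 21 members passed between P7 and P1 (19 higher and 2 lower) and 18 between P7 and P3 (15 higher and 3 lower). The share of all genes passing in this fit is not given here.

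The balance of isozymes was compared as a log2 ratio of counts per kilobase of exon within each library. The level of a ratio depends on the length chosen, while its difference between passages does not. Pfkp has 11760 exonic bases but 4145 in its longest coding transcript, and Pfkl has 4076 and 3730. A two-sided exact permutation test over libraries was used, adjusted over the 8 ratio tests made. With 4 libraries against 4 the smallest p is 0.0286, and leaving out any 1 library of P7 ended each of the 6 calls made. In those permutation tests p was 0.0286 or 0.0571 and the adjusted p was 0.0762, while no difference changed sign. Few splits are possible with so few libraries, so the loss does not show that a call rests on 1 library. Ldhb, the heart-type subunit of lactate dehydrogenase, was at 4.246, 3.738, 4.648 and 5.631 CPM at P1, 5.126, 6.173, 7.802 and 5.632 at P3, 7.108, 7.329, 8.4 and 6.95 at P5 and 10.92, 9.336, 8.224 and 7.348 at P7, and rose by 0.97 ± 0.171 (adjusted p = 6.3e-05, no overlap). The log2 ratio of Ldha to Ldhb was 5.391 ± 0.347 at P1, 5.244 ± 0.247 at P3 and 4.841 ± 0.133 at P7 (SD, n = 4, exact permutation test, adjusted p = 0.098 for P7 against P1 and 0.0381 for P7 against P3). The ratio of Pfkp to Pfkl fell from -1.706 ± 0.186 at P1 and -1.944 ± 0.208 at P3 to -2.715 ± 0.307 at P7, with no overlap between P7 and either (exact permutation test, n = 4, adjusted p = 0.0381 for both). The ratio of Hk2 to Hk1 was -1.92 ± 0.169 at P1, -1.440 ± 0.0828 at P3 and -1.626 ± 0.0259 at P7, so P7 was higher than P1 and lower than P3 (exact permutation test, n = 4, adjusted p = 0.0381 for both). Hk2, the inducible hexokinase, lay between 38.33 and 58.18 CPM in all 16 libraries and passed at no step. Aldoc was at 2.192, 2.175, 2.324 and 1.98 CPM at P1, 2.169, 1.921, 2.45 and 0.7315 at P3, 3.295, 4.564, 6.139 and 1.522 at P5 and 2.061, 1.312, 2.306 and 0.5938 at P7, with replicate 4 the lowest at each passage. Its ratio to Aldoa fell from -8.667 ± 0.0463 at P1 to -9.865 ± 0.702 at P7 (exact permutation test, n = 4, adjusted p = 0.0381), and did not pass against P3 (-9.123 ± 0.657, adjusted p = 0.2).

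**Figure D2:**
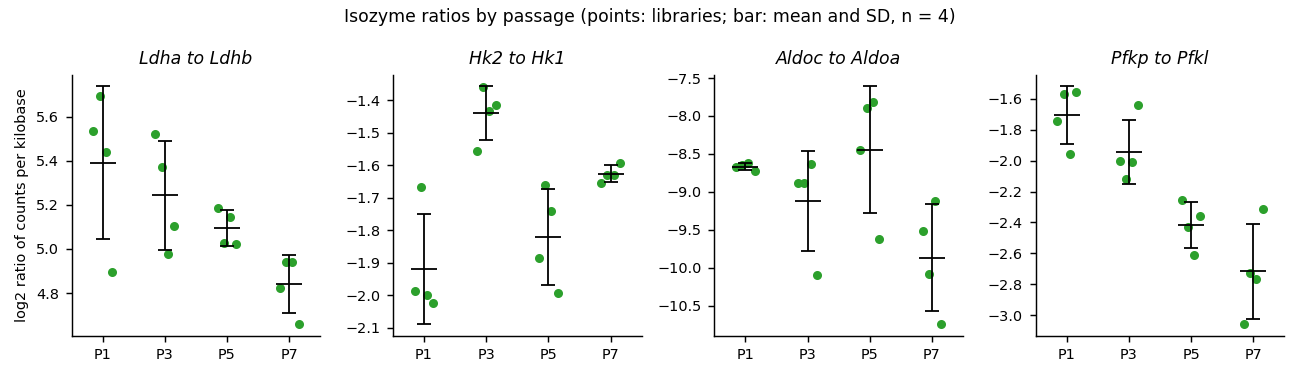
Log2 ratio of counts per kilobase of exon of 4 isozyme pairs by passage, with points for the 4 libraries and a bar for the mean and SD. The Pfkp to Pfkl ratio at P7 lay below every library of P1 and P3, while the Hk2 to Hk1 ratio at P7 lay between those of P1 and P3.

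The rest of the pathway was followed in lists that hold no member, in P7 against P1, where 30.5% of all genes rose and 31.9% fell. Of 11 further genes of pyruvate entry, 4 rose and 1 fell from P1 to P7. Pdk1 and Pdk2, kinases that switch off pyruvate dehydrogenase, rose by 1.61 ± 0.191 and 1.81 ± 0.157, and Pdk4, another such kinase, rose by 1.27 ± 0.225. Pdp2, a phosphatase that switches the complex on, fell by 1.14 ± 0.151. Of 12 further citrate cycle genes tested, 8 rose and 1 fell, among them Ogdhl, a relative of the oxoglutarate dehydrogenase Ogdh, at 35.58 against 6.707 CPM (log2 difference 2.40 ± 0.142), and Sdhc, a membrane subunit of succinate dehydrogenase, with 0.74 ± 0.093. Acly, which makes cytosolic acetyl-CoA from citrate, fell by 0.65 ± 0.118, with a log2 difference of -0.56 ± 0.118 already from P1 to P3. Of 14 further glycolysis genes tested, 3 rose and 4 fell. Bsg, a chaperone of lactate transporters, rose by 0.98 ± 0.078, and the lactate transporter Slc16a1 fell by 1.21 ± 0.164. Hk3, a hexokinase of blood cells, was at 0.03711 CPM at P7 against 17.04 at P1, alongside the macrophage markers. Of 7 pentose phosphate genes 3 rose and 2 fell, with G6pdx, the first and controlled enzyme, falling by 1.06 ± 0.131 and Pgls, the next, rising by 1.13 ± 0.143. Markers of other cell types were high at P1, so P7 against P3 is given for the genes named outside glycolysis. Pdk1 and Pdk2 rose by 0.49 ± 0.181 and 1.01 ± 0.149, Ogdhl by 1.18 ± 0.132, Sdhc by 0.565 ± 0.093 and Pgls by 0.755 ± 0.141. Pdp2 fell by 0.77 ± 0.152 and G6pdx by 0.46 ± 0.131, while Pdk4 and Acly did not pass (adjusted p = 0.074 and 0.562).

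Tead1 knockdown asks what the loss of this factor does to the same enzymes, and glycolysis genes fell together at small size. Between sh3 and nt, 3 of 35 members tested rose (17.6% of all genes tested did) and 17 fell (17.7%). Between sh4 and nt, 3 rose (14.4%) and 17 fell (14.7%). Of the 17 glycolysis genes tested, 1 rose and 11 fell with sh3, and 1 rose and 12 fell with sh4. Of 14 citrate cycle genes, 2 rose and 4 fell with each hairpin, and of 4 pyruvate entry genes, 2 fell with sh3 and 1 with sh4. The mean of both hairpins gave 5 higher (17.9%) and 17 lower (18.4%), with 2 higher and 12 lower in glycolysis. The median log2 difference over glycolysis genes was -0.22 with sh3 and -0.23 with sh4, against 0.004 and 0.001 over all genes tested, and no member changed over 2-fold. The 2 comparisons share the nt libraries. The 18 glycolysis genes, Aldoc included, took 0.643% ± 0.00618 of all counts with nt, 0.586% ± 0.00781 with sh3 and 0.579% ± 0.00997 with sh4 (SD, n = 3).

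The first enzyme step of glycolysis showed the largest change. Hk2 was at 81.32, 75.74 and 78.02 CPM with nt, 52.72, 47.15 and 47.52 with sh3 and 59.11, 54.65 and 56.63 with sh4. The 3 groups did not overlap, and Hk2 fell by 0.67 ± 0.056 with sh3 and by 0.46 ± 0.056 with sh4 (adjusted p = 4.9e-11 and 9.64e-08), a loss of 37.3% and 27.5%. Hk1 was at 113, 108.6 and 119 CPM with nt, 89.36, 83.48 and 84.15 with sh3 and 95.19, 93.5 and 97.04 with sh4. It fell by 0.41 ± 0.048 and 0.25 ± 0.048 (adjusted p = 5.11e-08 and 0.000113), again in every library. Pfkl was at 80.97, 78.86 and 84.06 CPM with nt, 58.42, 59 and 57.7 with sh3 and 69.01, 62.96 and 65.73 with sh4. It fell by 0.48 ± 0.052 and 0.30 ± 0.051 (adjusted p = 1.01e-08 and 2.88e-05) with no overlap between the 3 groups. Pfkfb3 was at 30.29, 31.35 and 30.97 CPM with nt, 23.59, 27.02 and 24 with sh3 and 27.01, 23.88 and 26.67 with sh4, and fell by 0.31 ± 0.075 and 0.26 ± 0.075 (adjusted p = 0.00143 and 0.0095). Pfkp was at 56.64, 47.22 and 50.1 CPM with nt, 43.43, 41.41 and 46.65 with sh3 and 42.26, 43.14 and 46.93 with sh4, with both hairpins below nt (adjusted p = 0.00845 and 0.0135).

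Enzymes of later steps also fell. Aldoa, whose promoter holds the TEAD core shown above, was at 718.2, 746.3 and 738.6 CPM with nt, 602.8, 587.9 and 579.8 with sh3 and 605.4, 575.2 and 557.2 with sh4. It fell by 0.32 ± 0.038 and 0.34 ± 0.038 (adjusted p = 6.66e-08 and 2.37e-08), and both hairpins lay below nt. Tpi1 was at 220.7, 228.7 and 233.6 CPM with nt, 195.1, 188 and 177.1 with sh3 and 184.7, 186.2 and 183.9 with sh4, and fell by 0.29 ± 0.043 and 0.30 ± 0.043 (adjusted p = 2.68e-06 and 1.82e-06). Eno1, the other gene shown with a TEAD core, was at 1277, 1298 and 1323 CPM with nt, 1117, 1094 and 1111 with sh3 and 1103, 1074 and 1072 with sh4, and fell by 0.23 ± 0.034 and 0.26 ± 0.034 (adjusted p = 2.65e-06 and 4.58e-07). Neither gene overlapped nt with either hairpin. Of the remaining genes with the core, Mdh1 rose with sh3, as given below, and Aldoc was not tested. Pgk1 was at 449.8, 446 and 440 CPM with nt, 382.6, 380.4 and 383.7 with sh3 and 369.8, 368.7 and 391.8 with sh4, and fell by 0.22 ± 0.038 and 0.24 ± 0.038 (adjusted p = 2.13e-05 and 8.37e-06). Ldha was at 714, 739.7 and 723.1 CPM with nt, 681.7, 618 and 656 with sh3 and 677.4, 651.4 and 677.3 with sh4, which is below nt in each library, by 0.15 and 0.12 (adjusted p = 0.00199 and 0.0208). Pgam1 had differences of -0.12 and -0.11 that also passed (adjusted p = 0.0124 and 0.0317).

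**Figure D3:**
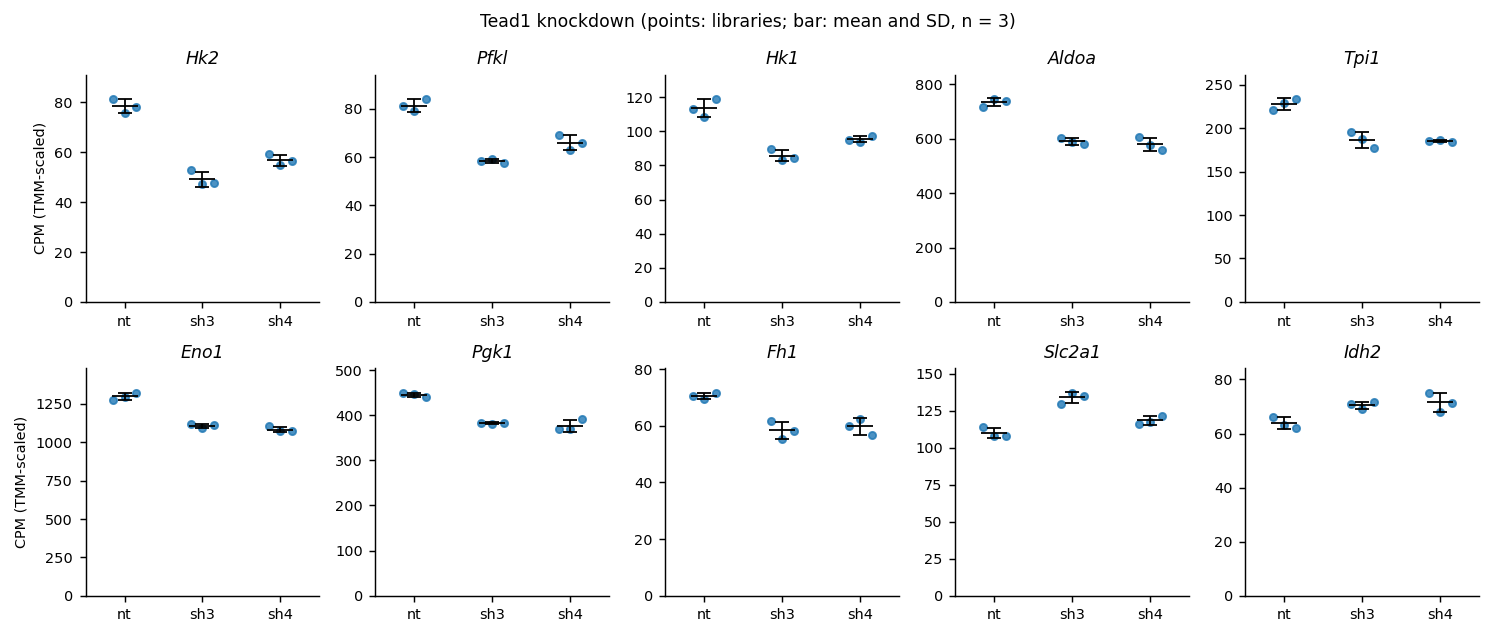
Level of 10 members (CPM after TMM scaling, vertical axis from 0) in the Tead1 groups, with points for the 3 libraries and a bar for the mean and SD. Hk2 was at 75.74 to 81.32 CPM with nt, 54.65 to 59.11 with sh4 and 47.15 to 52.72 with sh3.

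Some glycolysis genes did not follow. Pkm was at 1838, 1750 and 1859 CPM with nt, 1815, 1817 and 1841 with sh3 and 1818, 1732 and 1763 with sh4, so the groups overlapped (log2 difference 0.007 and -0.036, adjusted p = 0.897 and 0.49). Gpi1 also overlapped, with 0.051 and -0.031 (adjusted p = 0.359 and 0.622), and Ldhb, at 13.52, 13.27 and 15.25 CPM with nt, 17.27, 14.23 and 16.11 with sh3 and 15.98, 15.13 and 13.69 with sh4, did not pass (adjusted p = 0.182 and 0.553). Slc2a1, the main glucose transporter of fibroblasts, was at 114, 107.8 and 107.9 CPM with nt, 129.7, 137.2 and 135.3 with sh3 and 116.3, 117.4 and 121.6 with sh4. It rose by 0.29 ± 0.045 with sh3 (adjusted p = 6.35e-06) and had a difference of 0.11 with sh4 (adjusted p = 0.0719). Pfkm rose with sh4 (log2 difference 0.22, adjusted p = 0.0428) and was at 0.17 with sh3 (adjusted p = 0.109). Gapdh was at 33.41, 31.29 and 32.52 CPM with nt, 29.92, 30 and 28.03 with sh3 and 29.58, 28.07 and 25.43 with sh4. Both hairpins were below nt in every library, and Gapdh passed with sh4 (log2 difference -0.23, adjusted p = 0.0165) but not with sh3 (-0.14, adjusted p = 0.119). Aldoc, at 0 to 0.578 CPM in all 9 libraries, was filtered out.

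The pyruvate and citrate cycle genes changed in both directions. Fh1 was at 70.45, 69.45 and 71.66 CPM with nt, 61.61, 55.36 and 58.08 with sh3 and 60.04, 62.46 and 56.74 with sh4, below nt in every library, and fell by 0.27 ± 0.055 and 0.24 ± 0.055 (adjusted p = 0.000182 and 0.00108). Pdha1 fell by 0.19 and 0.15 (adjusted p = 0.00076 and 0.00804), Idh3a by 0.18 and 0.14 (0.00758 and 0.0459) and Mdh2 by 0.11 and 0.16 (0.0448 and 0.00436). Dlat, the acetyl-transferring subunit of the pyruvate dehydrogenase complex, and Aco1 fell with sh3 (by 0.15 and 0.14, adjusted p = 0.0158 and 0.031), and Idh3b fell with sh4 (by 0.15, adjusted p = 0.0341). Idh2, which fell with passage, was at 66.18, 63.15 and 62.2 CPM with nt, 70.9, 68.98 and 71.47 with sh3 and 75.09, 68.07 and 71.45 with sh4. Its hairpin libraries were all above nt, and it rose by 0.14 and 0.17 (adjusted p = 0.0343 and 0.017). Ogdh, the oxoglutarate dehydrogenase, rose with sh4 (0.20 ± 0.047, adjusted p = 0.00133). The cytosolic malate dehydrogenase gene Mdh1, whose promoter also holds the TEAD core, rose with sh3 (0.18 ± 0.052, adjusted p = 0.0071). Cs had 0.007 and -0.052 and did not pass (adjusted p = 0.917 and 0.337).

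The hairpins themselves were compared as well. Of 35 members, 2 were higher with sh4 than with sh3 (3.34% of genes tested) and 1 was lower (4.03%). These were Hk2 (0.21, adjusted p = 0.0214), Pfkl (0.17, adjusted p = 0.0367) and Slc2a1 (-0.18, adjusted p = 0.0108), each nearer to nt with sh4. Tead1 was itself higher with sh4 than with sh3, by 0.18 ± 0.043 (adjusted p = 0.00625). Without 1 library (sh3 replicate 2, or sh4 replicate 1) 0 members passed this comparison, and without sh3 replicate 3 or sh4 replicate 3 only 1 did. The skeletal muscle markers, of which 1 of 9 was over 5 CPM, summed to 94.3 to 95.3 CPM with nt, 62.1 to 72.1 with sh3 and 69.6 to 79.3 with sh4, and their part in these differences was not tested.

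**Figure D4:**
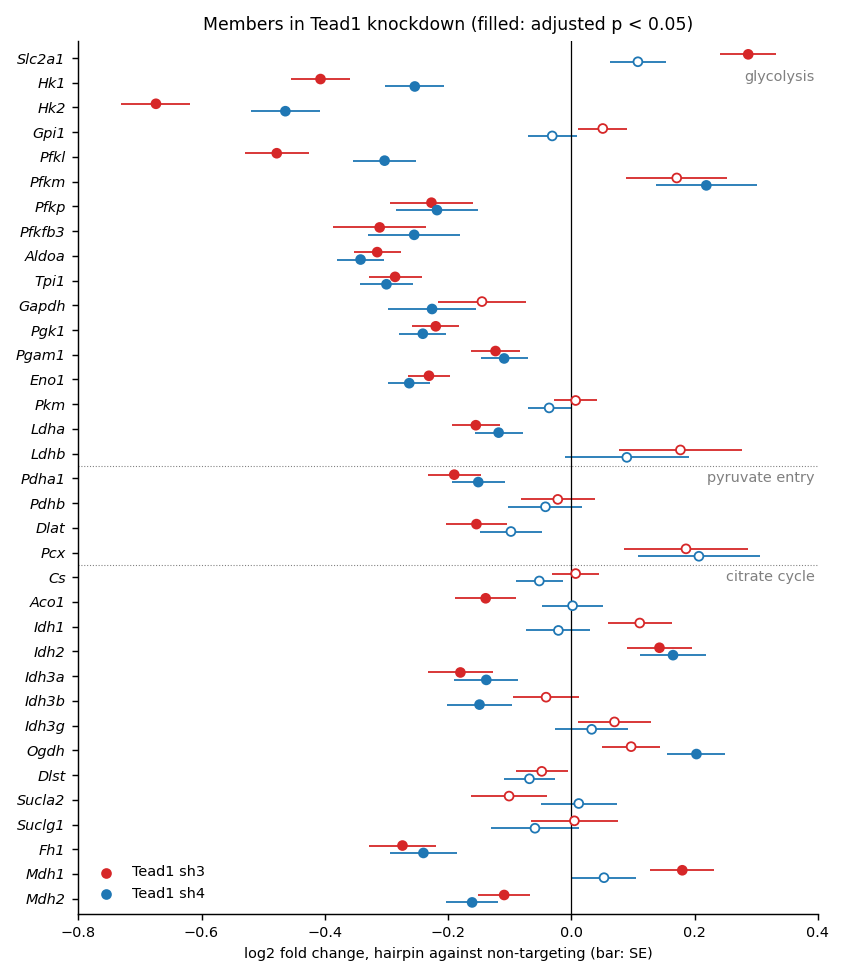
Log2 fold change of each of the 35 tested members with sh3 and with sh4 against nt, with bars of 1 SE, grouped by glycolysis, pyruvate entry and citrate cycle. Glycolysis genes lay mostly left of 0, from -0.67 for Hk2 with sh3 to 0.29 for Slc2a1 with sh3, and the citrate cycle genes lay on both sides.

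Among the further genes of the pathway, Pdk1 showed the largest difference that passed with each Tead1 hairpin. It was at 11.28 CPM with nt, 4.294 with sh3 and 6.231 with sh4, and fell by 1.39 ± 0.138 and 0.86 ± 0.130 (adjusted p = 1.57e-09 and 5.62e-06). Slc16a3, the lactate exporter of glycolytic cells, was at 29.81, 16.96 and 18.98 CPM and fell by 0.81 ± 0.085 and 0.65 ± 0.083 (adjusted p = 4.48e-09 and 3.48e-07). Over all genes tested, 17.6% rose and 17.7% fell with sh3, and 14.4% rose and 14.7% fell with sh4. Of 11 further pyruvate entry genes, 0 rose and 3 fell with sh3 (Pdk1, Pdk4 and Dld), and 2 rose (the phosphatases Pdp1 and Pdp2) and 2 fell (Pdk1 and Pdk4) with sh4. Of 13 further glycolysis genes tested, 3 rose and 4 fell with sh3, and 1 rose and 5 fell with sh4. Bpgm, which makes 2,3-bisphosphoglycerate, fell by 0.37 and 0.24, and Eno2, the neuronal enolase, rose by 0.31 with each hairpin, opposite to Eno1. Of 12 further citrate cycle genes, 3 rose and 1 fell with sh3, and 1 rose and 0 fell with sh4. The malic enzyme gene Me3, at 1.597 CPM with nt, rose by 0.98 ± 0.263 with sh3 and by 0.85 ± 0.265 with sh4, and Me2 fell by 0.33 ± 0.058 with sh3 and did not pass with sh4 (adjusted p = 0.0701). Of 7 pentose phosphate genes, 1 rose and 0 fell with sh3, and 1 rose and 3 fell with sh4. Pgd, the phosphogluconate dehydrogenase, rose by 0.24 ± 0.042 with sh3 and by 0.13 ± 0.042 with sh4, and the genes that fell with sh4 were Pgls, Rpe and Taldo1 (adjusted p = 0.0457, 0.035 and 0.00571).

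With overexpression of E2f4, tested for its effect on proliferation by the study, most glycolysis genes were higher than in the vector control. These groups also differed in Xist and Ddx3y, as given above. Of 36 members 19 rose (28.9%) and 5 fell (28.2%), with 14 rising and 2 falling in glycolysis, 4 and 3 in the citrate cycle and 1 and 0 at pyruvate entry. With 2 libraries against 2, the median log2 difference was 0.66 over glycolysis genes and 0.009 over all genes tested. Pkm was at 1160 and 1344 CPM in the control and 2044 and 2260 with E2f4, a rise of 0.78 ± 0.106 (adjusted p = 0.00015). Slc2a1 was at 76.79 and 71.92 CPM against 125.1 and 137.6 (0.82 ± 0.11, adjusted p = 0.000145). Tpi1 was at 166.3 and 166.8 CPM against 271.2 and 285.8 (0.74 ± 0.101, adjusted p = 0.000153). The controls lay below the overexpression libraries in all 3 genes, which were named among those passing without overlap. With 2 libraries against 2, 5436 of 13199 genes tested were higher without overlap and 5320 were lower. Of the 36 members, 23 were higher and 11 lower in this way. Both hexokinases rose, Hk1 from 63.26 and 85.58 CPM to 116.5 and 128.9 and Hk2 from 34.36 and 33.42 to 55.98 and 55.24 (adjusted p = 0.00155 and 0.000388). Lactate dehydrogenase rose in both subunits, Ldha from 663.4 and 632.6 CPM to 972.9 and 1057 and Ldhb from 23.49 and 22.94 to 41.7 and 46.21 (adjusted p = 0.000287 and 0.000145). Gapdh rose from 25.93 and 25.01 CPM to 39.84 and 42.96 (0.70 ± 0.122, adjusted p = 0.000691). The glycolysis genes that fell were Pfkm (-0.42) and Pfkp (-0.41), so Pfkl, which rose by 0.55, moved against both other subunits.

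Members outside glycolysis changed in both directions with E2f4. Pcx was at 9.648 and 12.51 CPM in the control and 22.65 and 24.23 with E2f4, the one member over 2-fold (1.09 ± 0.158, adjusted p = 0.000224). Cytosolic Idh1 was at 121.6 and 122.2 CPM against 69.22 and 63.17 and fell by 0.88 ± 0.109 (adjusted p = 8.94e-05), while mitochondrial Idh2 was at 46.58 and 50.37 CPM against 89.86 and 88.16 and rose by 0.88 ± 0.111 (adjusted p = 0.000103). The succinyl-CoA ligase subunits also parted, Suclg1 rising by 0.70 and Sucla2 falling by 0.56 (adjusted p = 0.000358 and 0.00341). The lactate transporter Slc16a1 rose by 1.07, and Pfkfb2, a relative of Pfkfb3, fell by 1.04. The Xist and Ddx3y levels given above, and the muscle markers (22 to 22.9 CPM with E2f4 against 66.4 to 75 in the control, 1 of 9 over 5 CPM), differed between these groups, and their part in the result was not tested.

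Knockdown of E2f4 moved fewer members, and 3 rose (10%) and 5 fell (7.79%) of 35 tested. Pfkp was at 55.17, 56.7 and 55.84 CPM with nt and 70.15, 72.7 and 76.15 with sh1 (0.38 ± 0.076, adjusted p = 0.00289). Pfkl was at 124.7, 126.2 and 119.8 CPM against 100.2, 88.02 and 102.2 and fell by 0.35 ± 0.072 (adjusted p = 0.0038). Idh2 was at 79.15, 86.83 and 82.26 CPM against 67.66, 65.8 and 68.28 and fell by 0.30 ± 0.073 (adjusted p = 0.0112). None of these 3 genes overlapped between groups, and each changed opposite to its direction with overexpression. The study describes the cells as proliferating for knockdown and pre-senescent for overexpression, so these experiments differ in more than E2f4. Eno1 was at 1588, 1602 and 1550 CPM against 1359, 1455 and 1262 and Ldha at 903.3, 895.2 and 861.1 against 793, 816.8 and 742.1 (log2 difference -0.22 and -0.18, adjusted p = 0.0226 and 0.0472). Dlst, the succinyl-transferring subunit of oxoglutarate dehydrogenase, fell by 0.23, and Idh1 and Mdh1 rose by 0.24 and 0.21 (adjusted p = 0.022, 0.0291 and 0.0465). Gapdh was at 37.59, 42.04 and 37.26 CPM with nt and 33.88, 36.02 and 150.4 with sh1, where replicate 3 stood far above every other library of the experiment. Its log2 difference was 0.91 (adjusted p = 0.135) with that library and -0.15 (adjusted p = 0.316) without it. The number of members that passed was 8 in full and 2 to 10 when 1 library was left out, lowest without nt replicate 2, and it was 3 without nt replicate 1 or nt replicate 3 and 4 without sh1 replicate 2. The muscle markers summed to 107 to 131 CPM with sh1 against 68.6 to 72.2 with nt (1 of 9 over 5 CPM in each), the 8 macrophage markers to 14.2 to 20.1 against 5.71 to 10.6, and the 10 fibroblast markers to 37300 to 39400 against 47200 to 47500 CPM, and their part in these differences was not tested.

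The Atf3 hairpins gave different results. With sh5, 7 members rose (17.7%) and 7 fell (18.1%), the latter all in glycolysis. With sh6, 22 rose (23.8%) and 2 fell (26%), with 13 rising and 1 falling in glycolysis and 8 and 1 in the citrate cycle. Between sh6 and sh5, a comparison chosen after the data were seen, 20 members were higher with sh6 (25.9%) and 5 lower (26.6%), and 5 were over 2-fold higher. The mean of both hairpins gave 14 higher (19.4%) and 3 lower (22.4%). The level of Atf3 did not differ detectably between sh5 and sh6 (log2 difference 0.35 ± 0.417 at under 2 CPM). Gpi1 was at 299.1, 309.7 and 306.9 CPM with nt, 165.8, 193.7 and 156.2 with sh5 and 422.5, 418.8 and 382.7 with sh6. It fell by 0.83 ± 0.086 with sh5 and rose by 0.42 ± 0.086 with sh6 (adjusted p = 0.000225 and 0.0023). Hk1 was at 95.6, 100.4 and 89.5 CPM with nt, 57.25, 59.46 and 54.36 with sh5 and 143.9, 125 and 115.4 with sh6, and moved the same opposite ways (adjusted p = 0.000591 and 0.00305). Pfkp, at 45.51, 46.04 and 45.3 CPM with nt, 33.47, 31.21 and 39.24 with sh5 and 88.68, 80.43 and 74.6 with sh6, did too (adjusted p = 0.0134 and 6.69e-05). For these 3 genes no group overlapped another. Pfkl was at 53.1, 60.14 and 58.56 CPM with nt, 27.95, 27.58 and 31.18 with sh5 and 59.91, 52.02 and 44.85 with sh6, and fell by 0.99 ± 0.113 with sh5 alone (adjusted p = 0.000363 and 0.352).

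With sh6, Pfkfb3 and Hk2 rose most. Pfkfb3 was at 19.09, 21.23 and 22.63 CPM with nt, 19.5, 19.29 and 18.49 with sh5 and 48.76, 47.11 and 48.05 with sh6 (1.19 ± 0.09 for sh6, adjusted p = 2.74e-06). Hk2 was at 27.27, 31.44 and 29.42 CPM with nt, 32.34, 28.71 and 25.2 with sh5 and 63.4, 57.6 and 55.19 with sh6 (1.00 ± 0.109 for sh6, adjusted p = 3.33e-05). The sh6 libraries stood above all others in both genes. The citrate cycle rose too, with Idh3a at 0.78, Mdh2 at 0.73 and Dlst at 0.65 against nt (adjusted p = 8.74e-06, 1.2e-05 and 2.01e-05), while Slc2a1 fell by 0.53 and Idh1 by 0.34 (adjusted p = 0.000776 and 0.00204). Both hairpins raised Ldhb (0.52 and 0.75), Pdhb (0.69 and 0.44) and Fh1 (0.57 and 0.64). Gapdh was at 27.4, 34.02 and 31.13 CPM with nt, 31.9, 31.73 and 41.5 with sh5 and 56.77, 51.72 and 42.53 with sh6, and rose with sh6 (0.71 ± 0.143, adjusted p = 0.00212). Replicate 3 of sh5 stood apart from its group in many members, such as Eno1 at 833.8, 793.5 and 548.3 CPM and Fh1 at 77.56, 76.04 and 106 CPM. Without it, 17 members passed for sh5 against nt in place of 14, and 31 for sh6 against sh5 in place of 25, and the number for sh5 was 7 without nt replicate 2 and 9 without nt replicate 3. The muscle markers, of which 1 of 9 was over 5 CPM, summed to 35.6 to 36.6 CPM with nt, 12.1 to 16.9 with sh5 and 196 to 216 with sh6. Of 10 fibroblast markers, 1 rose and 6 fell with sh6 (4 of them over 2-fold, median log2 difference -0.77), and 3 rose and 1 fell with sh5. The part of these markers in the differences was not tested.

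**Figure D5:**
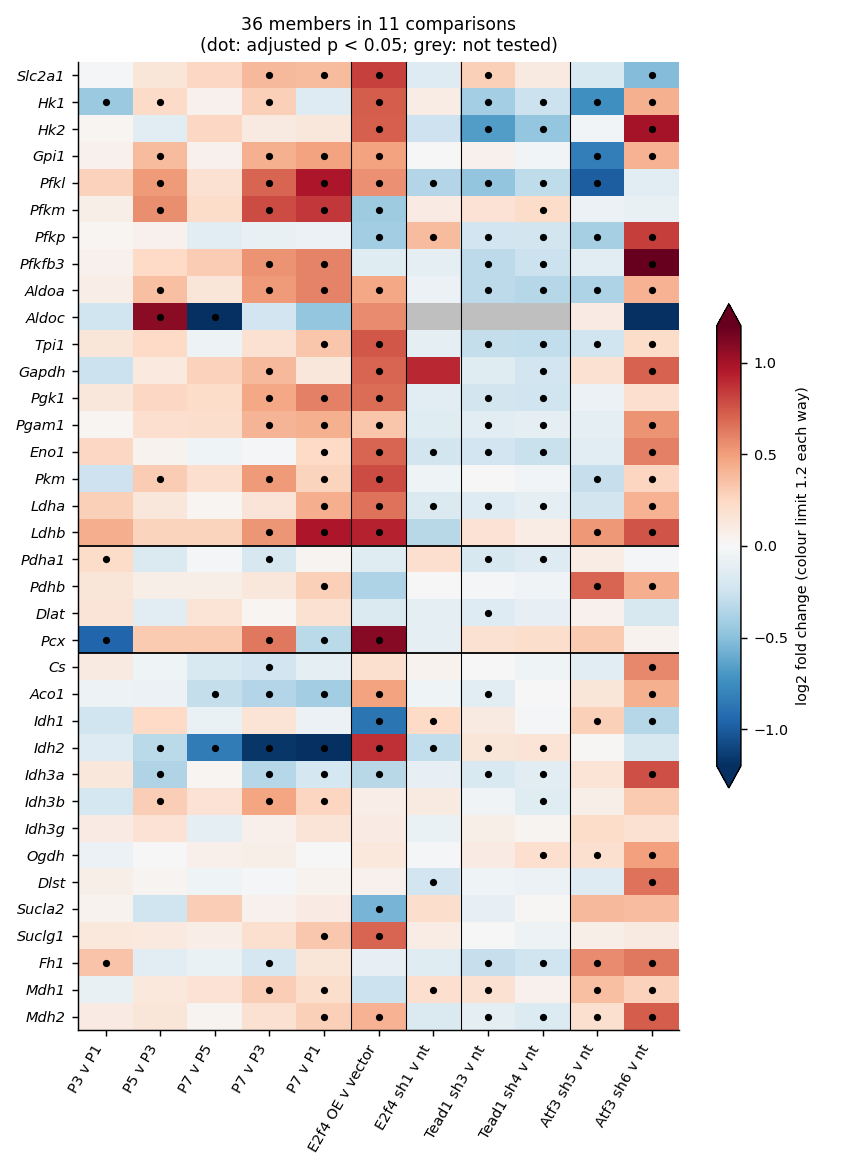
Log2 fold change (colour) of each of the 36 members in 11 comparisons, between passages and of each intervention with its own control, with a dot where edgeR's quasi-likelihood test gave an adjusted p under 0.05. The glycolysis genes were mostly higher at P7, with E2f4 overexpression and with Atf3 sh6, and mostly lower with both Tead1 hairpins.

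The 12 glycolysis genes that fell in the mean of the Tead1 hairpins were followed in the experiments that share no library with it. From P1 to P7, 8 of the 12 rose and 0 fell, where 39.6% of all genes that fell with Tead1 knockdown rose and 25.8% fell. From P3 to P7, 7 rose and 0 fell, against 30.2% and 26.3%. With E2f4 overexpression 10 rose and 1 fell, against 31.4% and 29.6%, and with Atf3 sh6 10 rose and 0 fell, against 37.2% and 21.4%. With Atf3 sh5 0 rose and 5 fell, against 21.6% and 21.5%, and with E2f4 sh1 1 rose and 3 fell, against 10.7% and 10.2%. Over all 18 glycolysis genes, 13 rose from P1 to P7, 12 from P3 to P7 and 14 with E2f4 overexpression. These rises were thus not particular to the 12. The 2 glycolysis genes that rose in the mean of the Tead1 hairpins also rose from P1 to P7 and from P3 to P7. Tead1 itself was at 307.4, 346.9, 355.1 and 381 CPM at P1, 416.6, 447.2, 481.4 and 545.1 at P3, 430.3, 455.6, 338.5 and 362.5 at P5 and 279.5, 405.6, 408.8 and 416.6 at P7. It rose by 0.44 ± 0.125 from P1 to P3 and fell by 0.32 ± 0.125 from P3 to P7 (adjusted p = 0.0103 and 0.0365).

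Chromatin at the start sites of these genes was open throughout. Each of the 36 members had an ATAC-seq peak within 1000 bases of a start site in each of the 13 samples, as did 91.4% of the 13425 genes looked at. The peak lists hold no read counts, so the strongest such peak, by its -log10 p, was ranked among all peaks of its sample, and the median percentile was 95.6 over members and 88.4 over all genes. The samples held 168982 to 186562 peaks at P1 and 200376 to 231558 at P7, and a rank depends on the other peaks of its list, so a change of rank is not a measured change at the gene. With P7 set against P1, the percentile was higher without overlap for 3 members (13.1% of genes) and lower without overlap for 15 (31.9%). The higher ones were Pgam1, Eno1 and Pcx. Pgam1 was at the percentiles 88.7, 89.0, 89.6 and 87.1 at P1 and 92.4, 92.8 and 93.8 at P7. Among the lower ones, Slc2a1 went from 95.6, 97.3, 96.8 and 98.1 at P1 to 84.7, 87.8 and 87.1 at P7, and Idh2 went from 87.3, 89.2, 86.7 and 90.1 to 78.4, 72.4 and 83.8. Hk2, near the top at 99.1, 98.9, 99.0 and 99.3 at P1 and 99.1, 98.9 and 99.2 at P7, and Pgk1, at 96.5, 97.9, 96.3 and 97.1 and 94.7, 96.9 and 96.9, overlapped between these passages.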

How the data were processed

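Gene counts of 44 RNA-seq libraries and peak lists of 13 ATAC-seq samples of mouse skin fibroblasts were used, grouped by their labels. The RRBS files were not used. For RNA-seq the authors used Trimmomatic 0.39 for trimming, HISAT2 2.2.1 for alignment (build mm10) and HTSeq 0.12.4, set to ignore strand, for counting, and deposited raw counts per gene. Reads outside genes or fitting several genes, listed by the intervention files, made up 7.5% to 16.761% of their counts and were left out. For ATAC-seq, the authors aligned with Bowtie2 and called peaks with MACS2 in each sample. The deposited fold enrichment over the local background and each peak's significance (-log10 p, -log10 q) come from MACS2 within the sample, with a smallest -log10 p of 2. Read counts are not in the peak lists, so the depth of ATAC-seq is unknown.

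Of 24984 gene symbols, 24870 matched the RefSeq annotation of GRCm38. A separate fit of each experiment, holding all its groups, was made in edgeR 4.0.16 (R 4.3.3) with filterByExpr, TMM scaling, the quasi-likelihood test and Benjamini-Hochberg adjustment over all genes. This left 13442 genes in the passage series, 13199 with E2f4 overexpression, 12310 with E2f4 knockdown, 13012 with Tead1 knockdown and 13345 with Atf3 knockdown. The fits were tested on simulated data. Isozyme ratios were log2 ratios of counts plus 0.5, each divided by the exonic length of its gene. Near copies of transcripts were found with minimap2 2.31-r1302. Alternatives were DESeq2 1.42.0, its size factors, other filters, the replicate block, fits of just the groups under comparison and fits without 1 library.

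The members and lists were chosen by pathway, with earlier results of these data known. Values in every library are given for up to 8 members per comparison of largest change among those passing without overlap, for Gapdh, for isozyme pairs and for the targeted genes, and where a sentence turns on a member. Absence of overlap in members named as passing without overlap was thus fixed by the choice. Of other genes, up to 3 highest and 3 lowest are named. The comparison of Atf3 sh6 with sh5, and leaving out replicate 4 of P3 and P7 together, were chosen after seeing the data.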

Additional observations from a re-analysis of the deposited data

Results flagged for a closer look

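In groups of 4 libraries, the gap between the most extreme library and its nearest neighbour, as a share of the range of the group, was compared with the 95% critical value of Dixon's test. Of 144 groups of member levels tested, 4 passed it (2.8%), and chance alone flags about 1 in 20 groups. In Dlat, replicate 4 of P1 was at 90.03 CPM against 82.05 to 83.33 in the other 3 libraries (share 0.840). In Idh2, replicate 1 of P1 was at 92.19 CPM against 73.06 to 74.31 (share 0.935). In Idh3b, replicate 2 of P3 was at 76.48 CPM against 65.83 to 66.37 (share 0.949). In Mdh1, replicate 1 of P7 was at 139.8 CPM against 109.2 to 112.6 (share 0.889). Each was the highest library of its group.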

How the results depend on the processing

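Over 2465 values of named genes under alternatives, 2309 kept their direction and their side of the threshold, 101 lost the call, 32 gained it and 23 changed sign, the last in 13 comparisons of a gene that passed neither before nor after. Of these, Pfkp between P3 and P1 was at -0.008 with at least 10 counts in every library. With 1 library left out, the log2 differences that changed sign ran from -0.015 to 0.053 for Pfkp, -0.020 to 0.112 for Hk2 and -0.415 to 0.017 for Aldoc between P3 and P1, from -0.013 to 0.214 for Gapdh between P5 and P3, from -0.078 to 0.148 for Ldha and -0.011 to 0.087 for Hk1 between P7 and P5, and from -0.468 to 0.048 for Aldoc between P7 and P3. They ran from -0.152 to 1.26 for Gapdh with E2f4 sh1, from -0.038 to 0.056 for Pfkp and -0.059 to 0.001 for Aldoa between Tead1 sh4 and sh3, from -0.011 to 0.091 for Aldoa in the mean of the Atf3 hairpins, and from -0.123 to 0.083 for Hk2 and -0.199 to 0.395 for Aldoc with Atf3 sh5. The cause of these changes was not tested. Of 193 counts of passing members, 176 stayed within 1.5 times. In Tead1 knockdown with sh3, DESeq2 gave 19 members and 4206 of all genes, in place of 20 and 4601. With sh4, DESeq2 gave 17 members and 3362 of all genes, in place of 20 and 3788. Leaving out 1 library gave 16 to 18 members with sh3 and 15 to 16 with sh4. The number of all genes passing is not given for any fit without 1 library. The replicate numbers were not taken to pair the libraries, since no label says what they share, with correlations of deviations from -0.262 to 0.276 in the passage series, where 11 of 24 pairs were over 0.1, from -0.045 to 0.112 in Tead1 knockdown, from 0.023 to 0.034 in E2f4 knockdown, at 0.142 in both pairs of E2f4 overexpression and from -0.158 to 0.137 in Atf3 knockdown. Replicate 4 was nonetheless the lowest for most glycolysis genes at P1, P3 and P7. With the replicate block, 7 members passed between P3 and P1 in place of 4, and 5 between P7 and P5 in place of 3. Of all genes, 4573 passed in place of 4493 and 2296 in place of 2254. With only the 2 groups compared, 11 members passed between P3 and P1 and 1 between P7 and P5. The cause of these shifts was not tested. Leaving out each library in turn gave 3 to 7 members between P3 and P1 (7 without P3 replicate 1), 3 to 10 between P5 and P3 (3 without P5 replicate 3 and 6 without P3 replicate 4), 2 to 10 with E2f4 sh1, 0 to 3 between Tead1 sh4 and sh3 and 7 to 17 with Atf3 sh5.

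For the isozyme ratios, pairing by the replicate number (replicate block with sign flips) allows no p under 0.125, so none of the 6 ratio calls was kept, at differences of -0.40 for Ldha to Ldhb against P3, 0.29 and -0.19 for Hk2 to Hk1 against P1 and P3, -1.2 for Aldoc to Aldoa against P1, and -1.01 and -0.77 for Pfkp to Pfkl against P1 and P3. With 1 library left out, the differences from P1 were -0.72 to -0.45 for Ldha to Ldhb (called without P1 replicate 4), 0.26 to 0.38 for Hk2 to Hk1, -1.44 to -0.91 for Aldoc to Aldoa and -1.14 to -0.89 for Pfkp to Pfkl. Those from P3 were -0.49 to -0.31 for Ldha to Ldhb, -0.22 to -0.16 for Hk2 to Hk1 and -0.91 to -0.66 for Pfkp to Pfkl. After adjustment, leaving out any 1 library of P7 ended each of the 6 calls, any 1 of P1 that of Aldoc to Aldoa, and any 1 of P3 that of Pfkp to Pfkl against P3. With a library left out few splits are possible, so these losses do not show that a call rests on 1 library.

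In each of 50 pairs of replicates, the chi-square statistic divided by its degrees of freedom was above what counting error alone gives (2.74 to 59.94). Depth limits Aldoc most, with group means of 0.212 to 3.88 CPM.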
